A study of Mus musculus with 1279 samples.

Results

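The 10 genes described here encode secreted angiogenic and trophic growth factors, and their values were followed across 8 cell clusters and 4 mouse strains of the adult heart. The rule lists them by symbol and uses no measured value: Vegfa, Vegfb, Vegfc, Vegfd, Angpt1, Angpt2, Fgf2, Fgf7, Hgf and Adm, each matched to 1 Ensembl gene row of the heart count table. All 10 were found among its 46517 genes. The data were Smart-seq2 libraries, a plate-based full-length method without molecular identifiers, of 1279 single cells, and each cell carried a cluster number from 1 to 8 and a strain. The strain C57BL6 gave 581 cells, 45.4% of all, sorted with antibodies. The reporter strains PdgfrbGFP, Cspg4dsRED and Acta2GFP, in which a fluorescent protein marks cells that use the Pdgfrb, Cspg4 or Acta2 gene, gave 28.5%, 12.7% and 13.4% of the cells. Values of the 4 strains are given below in strain order, that is C57BL6, PdgfrbGFP, Cspg4dsRED and Acta2GFP. All mice were male, 10 to 20 weeks old and on a C57BL6 background, and cells bearing the endothelial protein CD31 were kept out by the sort. Elastase was added to the digestion of the Acta2GFP heart, and each reporter strain filled a plate of its own, so strain, sort, digestion and plate cannot be told apart.

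Growth factors of these families act on the vessels that mural cells and fibroblasts surround. Vegfa and Vegfb bind receptors of blood vessel endothelium, whereas Vegfc and Vegfd act mainly on lymphatic endothelium once proteases have trimmed them. Angpt1 activates the endothelial receptor Tek and steadies vessels, and Angpt2 competes for the same receptor in many settings. Fgf2 signals through several fibroblast growth factor receptors, Fgf7 mainly on epithelial cells, Hgf on cells with the receptor Met, and Adm encodes adrenomedullin, a vasodilator peptide that acts on endothelium and smooth muscle.

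The differences past the test's threshold concerned Fgf7 and Adm, so the 250 bases before the start of those genes are shown, as RefSeq gives them for GRCm38.p6. Fgf7 lies at chr2:126034658-126091185 on the plus strand and Adm at chr7:110627661-110629820 on the plus strand. The promoter stretch of Fgf7 is chr2:126034408-126034657 and that of Adm is chr7:110627407-110627656, both read 5′ to 3′ on the plus strand. Capitals mark the 5-base core of the hypoxia response element, ACGTG or GCGTG, on either strand.
Fgf7: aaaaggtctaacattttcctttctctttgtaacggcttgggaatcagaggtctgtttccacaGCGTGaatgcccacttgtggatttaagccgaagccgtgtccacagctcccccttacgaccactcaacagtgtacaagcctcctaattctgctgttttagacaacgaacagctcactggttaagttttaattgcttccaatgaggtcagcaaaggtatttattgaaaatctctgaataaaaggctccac
Adm: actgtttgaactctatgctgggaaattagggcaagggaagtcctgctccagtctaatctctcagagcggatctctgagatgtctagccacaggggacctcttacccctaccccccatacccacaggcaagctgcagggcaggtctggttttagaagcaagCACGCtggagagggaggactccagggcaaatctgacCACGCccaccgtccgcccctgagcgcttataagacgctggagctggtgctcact
The core occurred at 1 place in the Fgf7 stretch and at 2 places in the Adm stretch, 90 and 54 bases before its start, where it reads CACGC because it lies on the other strand. Among 32536 promoter windows of the same reference 38.8% held it, so a match is common. The letters TATAA stood 27 bases before the Adm start, and 15.9% of windows held them on the strand of the gene. The AP-1 site TGANTCA, searched on both strands and found in 6.73% of windows, was in none of the 8 members' windows the table holds (those of Vegfa, Vegfb, Vegfc, Vegfd, Fgf2, Fgf7, Hgf and Adm). A match of letters is a description, not evidence that a factor binds.

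The labels name no animal, so counts were summed per cluster and strain, sums of 3 cells or more were used, and the spread given is that between strains. Depth was 46268 to 1302397 counts per cell with a median of 274504, and the median number of genes per cell was 6388 in Acta2GFP against 3358 to 4265 in the other strains. Clusters 1 to 5 held 926 cells and summed 10590 to 14489 CPM (counts per 1000000 counts of the sum) over 5 fibroblast markers. Clusters 6 and 7 summed 9946 to 15717 CPM over 4 smooth muscle markers, and in cluster 8 pericyte markers led. Clusters 6 to 8, 353 cells, are called mural here. The mural markers Notch3, Mcam, Des, Rgs5 and Cspg4 summed 5239 to 11764 CPM in clusters 7 and 8. In cluster 6 they summed only 781, 2446 and 1852 CPM in C57BL6, Cspg4dsRED and Acta2GFP, below the fibroblast markers of each sum. The C57BL6 sum of cluster 6 held 3 cells and stood apart, with 12491 CPM of fibroblast markers against 3108 and 3223 in the other strains of that cluster. Endothelial marker sums stayed at or below 278.5 CPM. The clusters had been drawn by the study from the same counts, so a difference between clusters is not independent of how they were made.

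Adm was the most widely seen growth factor. It had a count in 821 cells, 64.2% of all, whereas Hgf had one in 64 cells, 5.00%, and the other 8 genes in 14.4% to 24.6%. Reads were concentrated in few cells: the 10 cells with most counts held 65.7% of all Hgf counts, 43.7% of those of Vegfa and 40.3% of those of Vegfd, but 10.4% of those of Adm. Of the sums of a cluster and strain with over 3 counts, the level fell by more than 1.5 times without the cell with most counts in 10 of 26 for Adm, 14 of 20 for Fgf7, 13 of 23 for Angpt2 and 12 of 13 for Hgf. Per kilobase of exon, the scale on which genes can be compared, the mean level over the 27 sums was 90.4 CPM per kb for Adm, 26.3 for Angpt2, 15.2 for Vegfc, 12.6 for Vegfd, 12.4 for Vegfb, 9.89 for Fgf7, 5.67 for Angpt1, 4.82 for Fgf2, 1.80 for Vegfa and 0.543 for Hgf. The place of Vegfd rests on the 3-cell C57BL6 sum of cluster 6 at 385 CPM, without which its mean was 6.91 CPM per kb, below Vegfb and Fgf7. At 10 counts or more, 561 cells had none of the 10 genes, 406 had 1 and 4 had 5. No cell had more than 5 at that level, so most cells that carried a growth factor transcript carried 1 or 2.

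**Figure D1:**
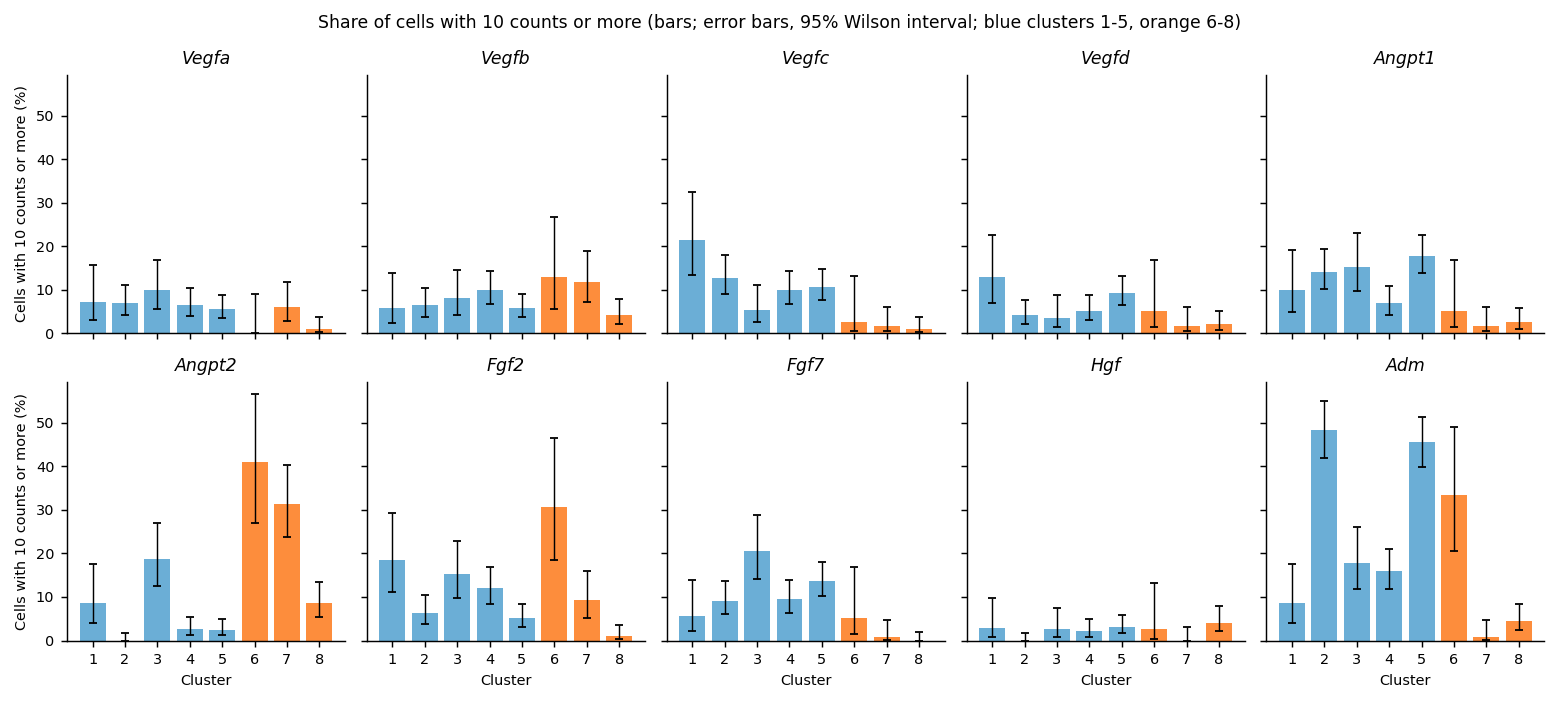
Share of cells with 10 counts or more of each growth factor (vertical axis, percent) in clusters 1 to 8 (horizontal axis), blue for clusters 1 to 5 and orange for clusters 6 to 8, with 95% Wilson intervals that cover counting error only. Adm reaches 48.4% of cells in cluster 2 and 45.5% in cluster 5, Angpt2 reaches 41.03% in cluster 6, and Hgf stays at or below 4.08% in all 8 clusters.

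Among the vascular endothelial growth factors, Vegfa (chr17:46016993-46032369, minus strand), the main driver of vessel sprouting, had a mean of at most 19.5 CPM in any cluster. Its sum over fibroblast clusters was 17.8, 5.41, 7.30 and 13.9 CPM in strain order, against 0.232, 0.146, 5.397 and 2.58 CPM over mural clusters. Every strain had more Vegfa on the fibroblast side and the ranges just missed each other, 5.397 against 5.412 CPM. Without the 1 cell with most Vegfa counts the PdgfrbGFP fibroblast sum was at 2.95 CPM, and the ranges overlapped. The Cspg4dsRED fibroblast sum was at 1.79 CPM without its own such cell, which held 59 of 77 counts, so in that strain the direction turned. At 10 counts or more it was in 6.70% of fibroblasts and 2.55% of mural cells. edgeR did not call the log2 difference of 2.42 (SE 1.20, adjusted p = 0.359).

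Vegfb (chr19:6982473-6987651, minus strand), a ligand of the receptor Flt1, was found on both sides. It was at 26.8, 12.98, 10.4 and 14.4 CPM over fibroblasts and at 19.5, 22.4, 23.5 and 21.99 CPM over mural cells in strain order. The log2 difference was -0.45 (SE 0.57, edgeR adjusted p = 0.804). It had 10 counts or more in 7.24% of fibroblasts and 7.65% of mural cells, and its cluster means ran from 5.49 ± 4.41 CPM (SD, n = 4 strains) in cluster 1 to 38.8 ± 55.04 CPM (n = 3) in cluster 6. That highest mean rests on 1 cell of the C57BL6 sum at 101.9 CPM. Over the sides as a whole, without the cell with most counts, the Cspg4dsRED fibroblast value was 0.627 CPM and the C57BL6 and PdgfrbGFP mural values were 7.68 and 11.7 CPM.

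Vegfc (chr8:54077606-54187096, plus strand), the main lymphatic growth factor, was found in all strains of the fibroblast side, at 34.6, 35.8, 18.4 and 42.3 CPM in strain order. On the mural side it was at 0.463, 0.292 and 0.057 CPM in the first 3 strains and at 38.6 CPM in Acta2GFP. In that sum 526 of the 528 Vegfc counts of cluster 6 came from 1 cell, without which the Acta2GFP mural value was 13.4 CPM. The Cspg4dsRED fibroblast value was 5.28 CPM without its own top cell. Cluster 1 had the largest share of cells with 10 counts or more, 21.4%, and a level of 46.7 ± 13.5 CPM (n = 4), between 29.98 and 62.9 in every strain, where the highest value, that of Cspg4dsRED, came from 1 of 3 cells. Over all strains the log2 difference was 1.76 (SE 1.55) and was not called by edgeR (adjusted p = 0.678), whereas without Acta2GFP it was 6.85 (adjusted p = 0.0292, range over the alternatives 0.0227 to 0.853).

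Vegfd (chrX:164373378-164402650, plus strand), the other lymphatic factor, was highest among fibroblasts in cluster 5, at 70.8 CPM in C57BL6 and 43.96 in PdgfrbGFP, the strains with 3 or more cells there. The other cells of clusters 2 to 5 had 15.6 and 13.9 CPM in those strains, so both strains were higher in cluster 5, by 2.03 (SE 0.44) on the log2 scale. With 2 strains edgeR called 0 of 16214 genes in this comparison (0%), and Vegfd had an unadjusted p of 0.00428 in that model across all genes. The cluster 6 mean of 128.3 ± 222.3 CPM (n = 3) rests on the 3 C57BL6 cells, 2 of which had Vegfd counts, at 385 CPM, since the other sums were at 0. Between all fibroblasts and all mural cells the log2 difference of Vegfd was 0.35 (SE 1.39, edgeR adjusted p = 0.944).

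The angiopoietins differed in where they were found. Angpt1 (chr15:42424723-42676977, minus strand), the agonist of Tek, was at 45.5, 32.9, 42.6 and 37.9 CPM over the fibroblast clusters in strain order, and at 0.579, 0.292, 3.02 and 58.6 CPM over the mural clusters. It had 10 counts or more in 13.3% of fibroblasts and 2.55% of mural cells. The 3 low mural values and the high Acta2GFP value gave a log2 difference of 1.37 (SE 1.31) that edgeR did not call (adjusted p = 0.711). In the Acta2GFP mural sum 535 of 1202 counts came from 1 cell, and without it the value was 33.6 CPM, below the 37.9 of that strain's fibroblasts. Within fibroblasts the range of cluster 1, 0 to 20.6 CPM, lay below that of the summed clusters 2 to 5, 36.2 to 47.1 CPM, although edgeR did not call that difference (adjusted p = 0.604). Ranges in that comparison stood apart for 3 members, Angpt1, Vegfb (0 to 10.1 against 11.3 to 27.4 CPM) and Fgf2, and for 9.36% of all genes. Of its exon bases, 14.16% are shared with the antisense gene Gm17473, and since the strand setting of the counting is not given in the sources used here, part of the counts could belong to that gene.

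Angpt2 (chr8:18690263-18741562, minus strand), the context-dependent Tek ligand, ran the other way. It was at 29.5, 16.4, 0.474 and 51.95 CPM over fibroblast clusters and at 84.1, 59.2, 120 and 287.4 CPM over mural clusters in strain order. All 4 strains had less on the fibroblast side and the ranges did not overlap. In the PdgfrbGFP mural sum 564 of 1219 counts came from 1 cell of cluster 7, and without that cell the level was 32.2 CPM and the ranges overlapped. The log2 difference was -2.48 (SE 0.96), which edgeR did not call (adjusted p = 0.204) and DESeq2 did (adjusted p = 0.0450, range over the alternatives 0.0450 to 0.381), beside 13.2% of all genes called by DESeq2. By cluster, the mean was 252.4 ± 350 CPM in cluster 6 (n = 3), 200.8 ± 71.1 in cluster 7 (n = 3), 157.4 ± 195.4 in cluster 3 (n = 3), 143.2 ± 150 in cluster 8 (n = 4) and 0.849 ± 1.08 in cluster 2 (n = 4).

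Among fibroblasts, Angpt2 had its lowest mean in cluster 2, where its range over strains, 0 to 2.43 CPM, overlapped that of cluster 3, 2.31 to 377 CPM. In cluster 2, 0 cells had 10 counts or more, whereas 21 cells of cluster 3 did, 18.8%. For cluster 2 the limit of 3 counts gives 1.37% and the Wilson interval 1.72%. Both take cells as independent and leave out depth and the spread between strains. In cluster 3 the Angpt2 level was 92.95 CPM in C57BL6, 2.31 in PdgfrbGFP and 377 in Acta2GFP. C57BL6 cells came from a pair of large plates, and cluster 3 had 92.8 CPM on one and 93.4 on the other. In PdgfrbGFP the other cells of clusters 2 to 5 had 10.8 CPM, of which 656 of 672 counts came from 1 cell of cluster 4. Without that cell they had 0.259 CPM, below the 2.31 of the 7 cells of cluster 3, so the direction in this strain turns on 1 cell. Between cluster 2 and the others of clusters 2 to 5 Angpt2 had a log2 difference of -5.43 (SE 1.56) in edgeR, where it was 1 of 9 tested members with an unadjusted p under 0.05 and 0 of 13870 genes were called (0%), and DESeq2 called Angpt2 there (adjusted p = 0.00298, the lowest of the alternatives) beside 1.29% of all genes. The PdgfrbGFP part of that difference is also that 1 cell of cluster 4.

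Fgf2 (chr3:37348346-37410108, plus strand), a broad mitogen that lacks a classical signal peptide, was highest in clusters 3 and 1. Cluster 3 had 88.9 ± 66.5 CPM (n = 3) and cluster 1 had 62.7 ± 35.3 CPM (n = 4). In cluster 3 the values were 32.8, 162.3 and 71.5 CPM in C57BL6, PdgfrbGFP and Acta2GFP, and 25.03, 63.6 and 18.3 CPM without the cell with most counts in each sum. The cluster 1 values were 38.7, 43.7, 114.8 and 53.5 CPM in strain order, and all 4 lay above the range of clusters 2 to 5, 6.4 to 32.2 CPM, although the log2 difference of 1.53 was not called by edgeR (adjusted p = 0.574). The Cspg4dsRED value came from 1 of 3 cells, and the PdgfrbGFP value was 12.3 CPM without the cell with most counts, so the ranges then overlapped. In cluster 6, 12 of 39 cells had 10 counts or more, 30.8%, and in cluster 8 it was 2 cells, 1.02%. Of its exon bases 9.44% are shared with the antisense gene Nudt6 and 3.76% with Gm43439, so part of its counts could belong to those genes, and reads in the shared stretches were not counted apart. Between all fibroblasts and all mural cells its log2 difference was 0.56 (SE 0.94, edgeR adjusted p = 0.862).

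Fgf7 (chr2:126034658-126091185), known as keratinocyte growth factor, was the only member called in the comparison of all fibroblasts with all mural cells. It was at 57.1, 35.97, 93.8 and 26.2 CPM in strain order over fibroblast clusters, and at 0.695, 0.583, 7.77 and 1.46 CPM over mural clusters. Every strain was higher in fibroblasts and the ranges did not overlap. Without the cell with most counts in each sum the values were 53.3, 32.1, 61.4 and 14.3 CPM over fibroblasts and 0.358, 0.492, 2.24 and 0.637 CPM over mural cells, and the ranges still did not overlap. It was found with 10 counts or more in 11.8% of the 926 fibroblasts and in 3 of the 353 mural cells, 0.850%. These shares come from the same counts as the sums and were not adjusted for depth. Median depth was 258505 to 349816 counts per cell in clusters 1 to 5. It was 345475, 243989 and 167873.5 counts in clusters 6, 7 and 8. In such sums fewer cells with the transcript and less transcript per cell cannot be told apart. Among fibroblast clusters the mean level was 90.8 ± 59.6 CPM in cluster 3 (n = 3), 67.8 ± 21.6 in cluster 5 (n = 2), 56.7 ± 53.6 in cluster 4 (n = 4), 37.1 ± 35.6 in cluster 2 (n = 4) and 13.3 ± 17.1 in cluster 1 (n = 4), and neighbours in that order overlapped. All Fgf7 counts of the 7 PdgfrbGFP cells of cluster 3 came from 1 cell.

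Hgf (chr5:16553495-16620152, plus strand), hepatocyte growth factor, had 1660 counts over all cells, the fewest of the 10 genes. In cluster 8 it was present in all strains, at 9.35, 5.02, 30 and 14.5 CPM in strain order. Single cells carried these values, since without the cell with most counts in each sum they were 0, 1.42, 14.6 and 2.17 CPM. In cluster 7 it was at 0, 0.0558 and 0.167 CPM in PdgfrbGFP, Cspg4dsRED and Acta2GFP. Summed over the strains with both clusters, there were 390 counts in cluster 8 and 3 in cluster 7, a ratio of 130. Its exact 95% interval, 44.2 to 633, treats each read as an independent draw. Reads carry no molecular identifiers and few cells held most of them. The interval thus leaves out amplification and the spread between cells and strains. Only 8 cells of cluster 8, 4.08%, held 10 counts or more, and edgeR did not call the difference (adjusted p = 0.336) whereas DESeq2 did (adjusted p = 0.00123, the lowest of the alternatives) beside 3.44% of all genes. Of its exon bases 6.74% are shared with Gm43489 on the same strand.

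Adm was unevenly spread among fibroblasts. It stood at 597 CPM in C57BL6 and 503 in PdgfrbGFP in cluster 5, and at 421, 422, 180.6 and 198.5 CPM in cluster 2 in strain order. Cluster 4 had 78.7, 80.7, 11.3 and 70.2 CPM in that order, and cluster 1 had 101.1, 20.2, 1.23 and 3.68 CPM. The ranges of clusters 5 and 2 did not overlap, and they were the only pair of neighbours in the order of cluster means of any of the 10 genes that did not. Cluster 5 has 2 strains, and with so few the ranges of cluster 5 and of the others of clusters 2 to 5 stood apart for 32.2% of all genes. In the 2 large C57BL6 plates cluster 5 had 476 and 749 CPM and cluster 2 had 338 and 505 CPM, so cluster 5 was higher than cluster 2 on both, and each cluster also differed between the plates.

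**Figure D2:**
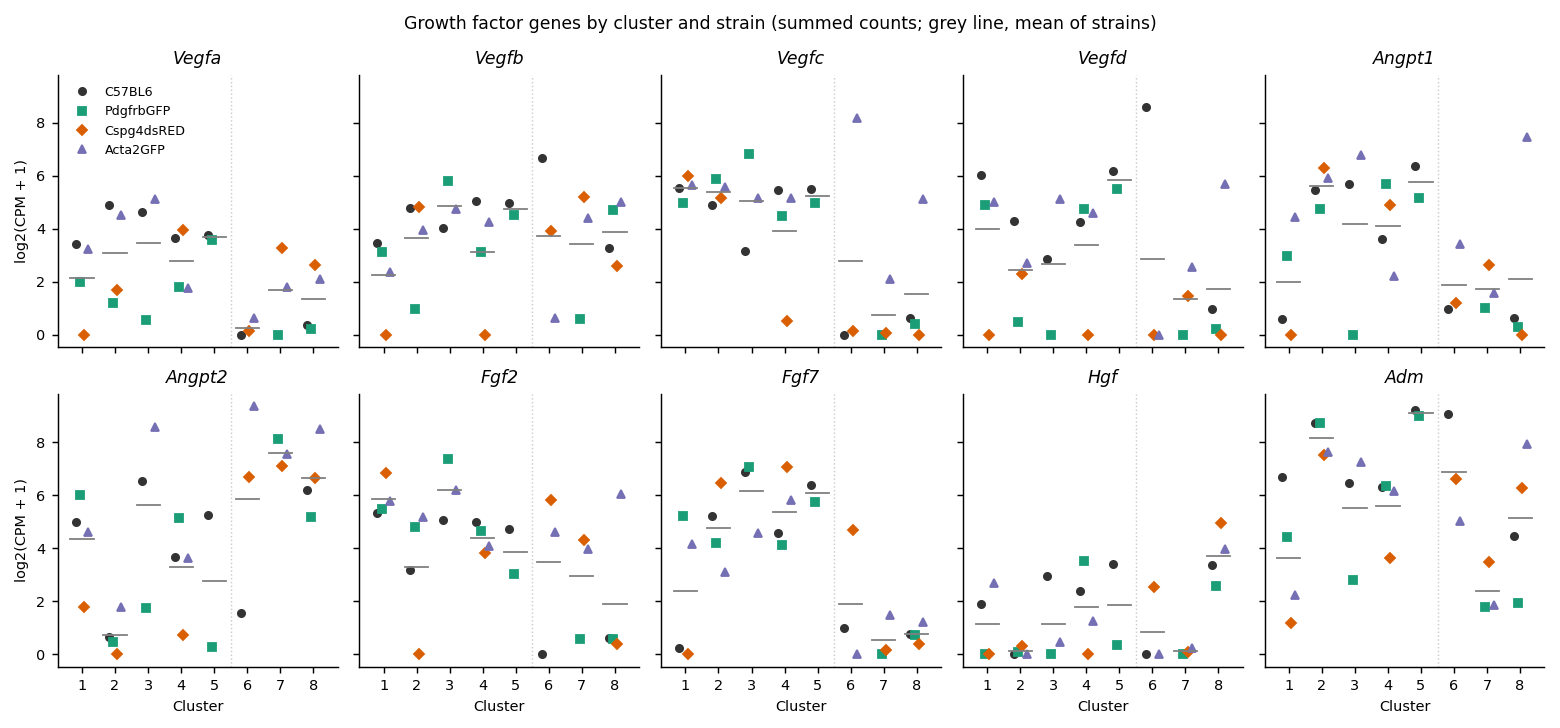
Level of each growth factor gene as log2(CPM + 1) of summed counts (vertical axis) by cluster (horizontal axis), with 1 symbol per strain and a grey line at the mean of strains. Adm runs from a mean of 550 CPM in cluster 5 to 5.09 CPM in cluster 7, Fgf7 lies at 0.742 CPM or less on average in clusters 7 and 8, and single Acta2GFP symbols stand above the rest in cluster 8 for Vegfc, Vegfd, Angpt1 and Fgf2.

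The first comparison asked which growth factors separate fibroblasts from mural cells as a whole. edgeR called 1 of the 10 members, Fgf7, at a log2 difference of 4.33 (SE 0.96, adjusted p = 0.0255), beside 5.93% of all 15117 genes tested. Leaving out C57BL6, PdgfrbGFP or Acta2GFP each ended the call, with adjusted p values of 0.0852 to 0.116 and log2 differences of 3.99 to 4.36. The ranges of 4 members, Fgf7, Angpt2, Adm and Vegfa, did not overlap, against 14.7% of all genes. Of these only the ranges of Fgf7 stayed apart when the cell with most counts was left out of any single sum, a check chosen after seeing the data. Adm overlapped once the Cspg4dsRED fibroblast sum fell to 63.2 CPM without that cell. In the C57BL6 mural sum 505 of 701 Adm counts came from 1 cell of cluster 6, and without it the level was 23.5 CPM in place of 81.2. The median log2 difference of the members was 0.97 against -0.02 for all genes. Adm was at 319, 304, 85.1 and 110 CPM over fibroblasts and 81.2, 2.77, 48.97 and 82.9 CPM over mural cells in strain order, higher in 4 of 4 strains, with a log2 difference of 1.98 (SE 0.82) that edgeR did not call (adjusted p = 0.246). The mural sums mix clusters in different shares, since PdgfrbGFP mural cells were mostly of cluster 8 and Cspg4dsRED mural cells mostly of cluster 7.

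Cluster 8, the pericyte-marked cells, was then set against fibroblast clusters 2 to 5. Fgf7 was again the only member called, 1 of 10 beside 6.60% of all genes. It was at 0.678, 0.647, 0.300 and 1.34 CPM in cluster 8 and at 59.2, 35.96, 101.6 and 28.8 CPM in clusters 2 to 5, in strain order. The log2 difference was -6.11 (SE 0.92, edgeR adjusted p = 0.00357), lower in 4 of 4 strains, and the adjusted p without C57BL6 was 0.0559, the highest of the alternatives. Angpt2, at 73.1, 35.2, 99.1 and 365 CPM in cluster 8, was above its fibroblast value in 4 of 4 strains, although the C57BL6 value was 28.4 CPM, against 29.5 in clusters 2 to 5, without the cell with most counts. It had a log2 difference of 2.67 (SE 1.15) that was not called (edgeR adjusted p = 0.269). The ranges of 2 members, Fgf7 and Vegfa, did not overlap, against 15.2% of all genes, and those of Vegfa did once 1 Cspg4dsRED fibroblast was left out. In cluster 8, 0 cells had 10 counts or more of Fgf7, and the highest count in any of these cells was 5. The limit of 3 counts gives 1.53% and the Wilson interval 1.92%. Both take cells as independent and leave out depth and the spread between strains. The dissociation genes, early response genes that enzymatic digestion can induce, summed 2964 to 6716 CPM in cluster 8 and 7020 to 23862 CPM in clusters 2 to 5, with 2 of 12 called lower, Jun and Fosb. At an unadjusted p under 0.05 they numbered 10 of 12, beside 16.3% of all genes, and the ranges of 7 of 12 did not overlap. Their part in the result was not tested.

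Cluster 7, the smooth muscle-marked cells, was compared with clusters 2 to 5 in the 3 strains with 3 or more cells on both sides. Adm was at 2.45 CPM in PdgfrbGFP, 10.2 in Cspg4dsRED and 2.59 in Acta2GFP in cluster 7, and at 339, 92.1 and 140 CPM in clusters 2 to 5. Only 1 cell of cluster 7, 0.847%, had 10 counts or more of Adm. Adm was the 1 member called of 9 tested, with a log2 difference of -5.15 (SE 1.01, edgeR adjusted p = 0.0166) beside 4.52% of all genes. With the strain as a block the adjusted p was 0.0536, and leaving out PdgfrbGFP, Cspg4dsRED or Acta2GFP each gave one between 0.0563 and 0.0750, so the call rests on all 3 strains and on the fit without the block. Of 12 dissociation genes edgeR called 0 there, and 0 had an unadjusted p under 0.05.

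Fgf7 was at 0, 0.112 and 1.76 CPM in cluster 7 against 35.96, 101.6 and 28.8 CPM, a log2 difference of -6.24 (SE 1.74, edgeR adjusted p = 0.0693). Angpt2 was at 277.7, 137.4 and 187.3 CPM against 10.5, 0.308 and 60 CPM, higher in 3 of 3 strains, with a log2 difference of 3.24 (SE 1.32) that was not called (edgeR adjusted p = 0.241). In the PdgfrbGFP sum 564 of the 566 Angpt2 counts came from 1 cell of 9, and without that cell the level was 1.12 CPM. The 10.5 CPM of clusters 2 to 5 in that strain also came mostly from 1 cell, of cluster 4, with 656 counts. The direction in PdgfrbGFP therefore rests on single cells on both sides. The ranges of 5 members did not overlap in this comparison, Fgf7, Adm, Angpt1, Angpt2 and Vegfc, against 28.4% of all genes, a background that 3 strains make high.

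**Figure D3:**
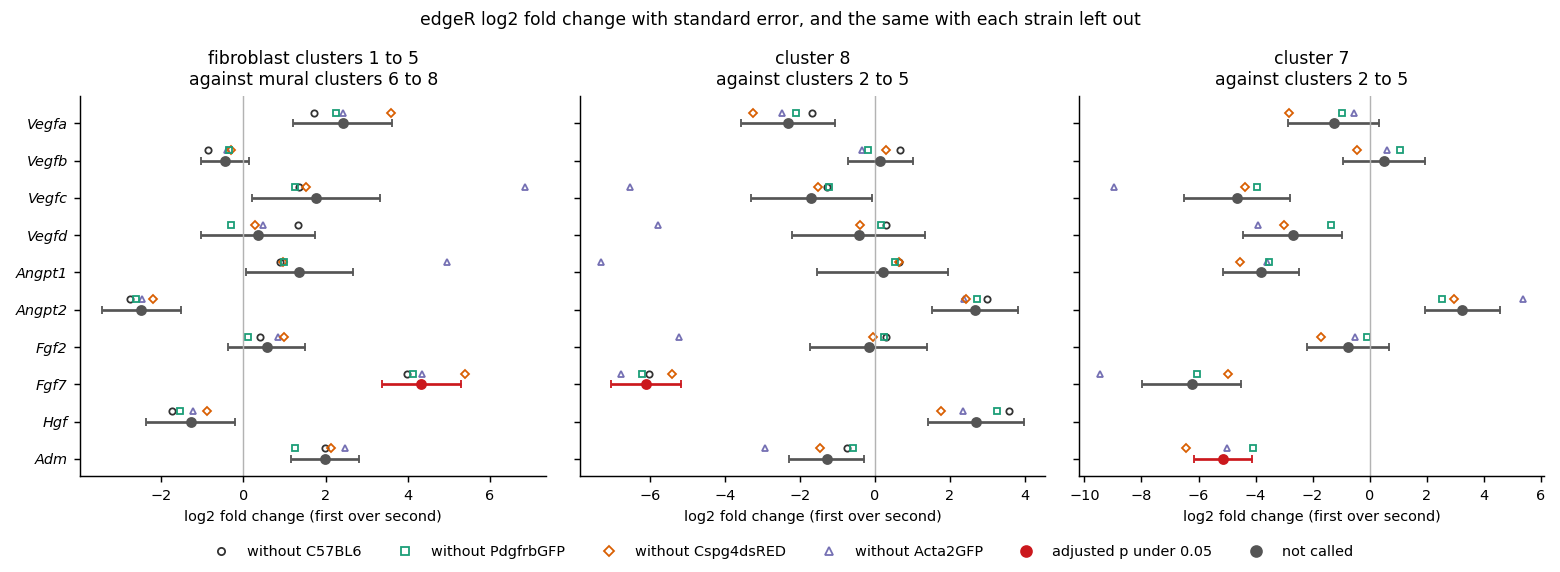
edgeR log2 fold change (horizontal axis) of each growth factor gene (vertical axis) in 3 comparisons, with filled points for all strains and their standard error and open symbols for the same fit with 1 strain left out, red where the adjusted p was under 0.05. Fgf7 stays between 3.99 and 5.39 in the first panel and between -6.77 and -5.41 in the second, while Angpt1 in the second panel moves from 0.20 to -7.32 when Acta2GFP is left out.

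The other comparisons called no member. Cluster 8 against cluster 7 had 0 of 8 tested members called by edgeR, 2 at an unadjusted p under 0.05 and 2 called by DESeq2, Hgf and Adm, beside 0.194% of all genes called by edgeR, 6.88% at an unadjusted p under 0.05 and 3.44% called by DESeq2. Adm was at 2.80, 76.6 and 240.6 CPM in cluster 8 and at 2.45, 10.2 and 2.59 CPM in cluster 7, in PdgfrbGFP, Cspg4dsRED and Acta2GFP. Its log2 difference was 4.37 (SE 1.64) and ran from 1.70 to 5.51 over the alternatives, with 2.45 without Acta2GFP. Cluster 6 against clusters 7 and 8 had 0 of 7 called, 0 at an unadjusted p under 0.05 and 0 by DESeq2. Of all genes, 0.033% were called by edgeR, 5.74% had an unadjusted p under 0.05 and 2.99% were called by DESeq2. Cluster 1, the fibroblasts with the largest share of cells with 10 counts or more of Vegfc, against clusters 2 to 5 had 0 of 10 called in edgeR, beside 1.33% of all genes, and 1 at an unadjusted p under 0.05, beside 8.87% of all genes. That member was Adm, with a log2 difference of -2.79 (SE 1.04, edgeR adjusted p = 0.362).

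Within clusters 2 to 5 edgeR called no member and no other gene of cluster 2, 3, 4 or 5 against the rest of that group, 0% in each. With the strain as a block it called 35 genes (0.236%) in cluster 3, none of them a member, and 0 in the other clusters. The members with an unadjusted p under 0.05 numbered 1 of 9 in cluster 2, 2 of 10 in cluster 3, 1 of 10 in cluster 4 and 2 of 10 in cluster 5, beside 4.62%, 6.05%, 4.75% and 3.89% of all genes in that order. In cluster 3 they were Angpt2, with a log2 difference of 3.92 (SE 1.34), and Fgf2, with one of 2.24 (SE 0.95) to which 1 Acta2GFP cell gave 306 of the 390 counts of that strain, and with the strain as a block or with limma-voom 0 of 10 members had one. In cluster 4 it was Adm, with a log2 difference of -2.37 (SE 0.58). In cluster 5 Adm was at 597 and 503 CPM in C57BL6 and PdgfrbGFP against 204.7 and 217.9 CPM in the other cells of clusters 2 to 5, a log2 difference of 1.45 (SE 0.22), and DESeq2 called it (adjusted p = 6.91e-06) together with Vegfd (adjusted p = 0.00589), beside 0.874% of all genes. In C57BL6 and PdgfrbGFP the dissociation genes summed 22384 and 23862 CPM in cluster 5, and 14546 to 21794 CPM in clusters 2 to 4. Of these 12 genes edgeR called 0 in cluster 5, 5 had an unadjusted p under 0.05, and the ranges of 8 did not overlap, against 32.2% of all genes. Their part in the Adm and Vegfd values was not tested. DESeq2 also called Adm in cluster 4 (adjusted p = 0.00517) beside 1.31% of all genes, in each case with the lowest p of the alternatives, and no member in cluster 3.

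The Acta2GFP cells of cluster 8 stood apart from those of the other strains. They were 15 cells with a median of 6896 genes per cell, against 2782 to 3610 in the other strains. Angpt1 was at 173.3 CPM there and at 0.542, 0.216 and 0 CPM in C57BL6, PdgfrbGFP and Cspg4dsRED. Of these 15 cells 5 had 10 counts or more of Angpt1, and without the top cell the level was 103.3 CPM. Vegfd was at 50.3 CPM against 0 to 0.949, Fgf2 at 64.97 against 0.300 to 0.542, and Vegfc at 33.5 against 0 to 0.542, where 1 cell gave 91.5% of the counts. Without the cell with most counts Vegfd was at 27.4 CPM and Fgf2 at 33.2. Pericyte markers summed 6942 CPM in these cells against 18865 to 23596 in the other strains, smooth muscle markers 4033 against 201.1 to 1170, and fibroblast markers 3334 against 960 to 1370. The part of those markers in the growth factor values was not tested. Without Acta2GFP, edgeR called 3 members in cluster 8 against clusters 2 to 5: Fgf7, Angpt1 at a log2 difference of -7.32 (adjusted p = 0.0180, range over the alternatives 0.0180 to 0.986) and Vegfc at -6.53 (adjusted p = 0.0397, range 0.0176 to 0.894), beside 7.63% of all genes. With all strains, Angpt1 had a difference of 0.20 (SE 1.74, edgeR adjusted p = 0.977), and with the strain as a block it was -6.16 (adjusted p = 0.237).

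**Figure D4:**
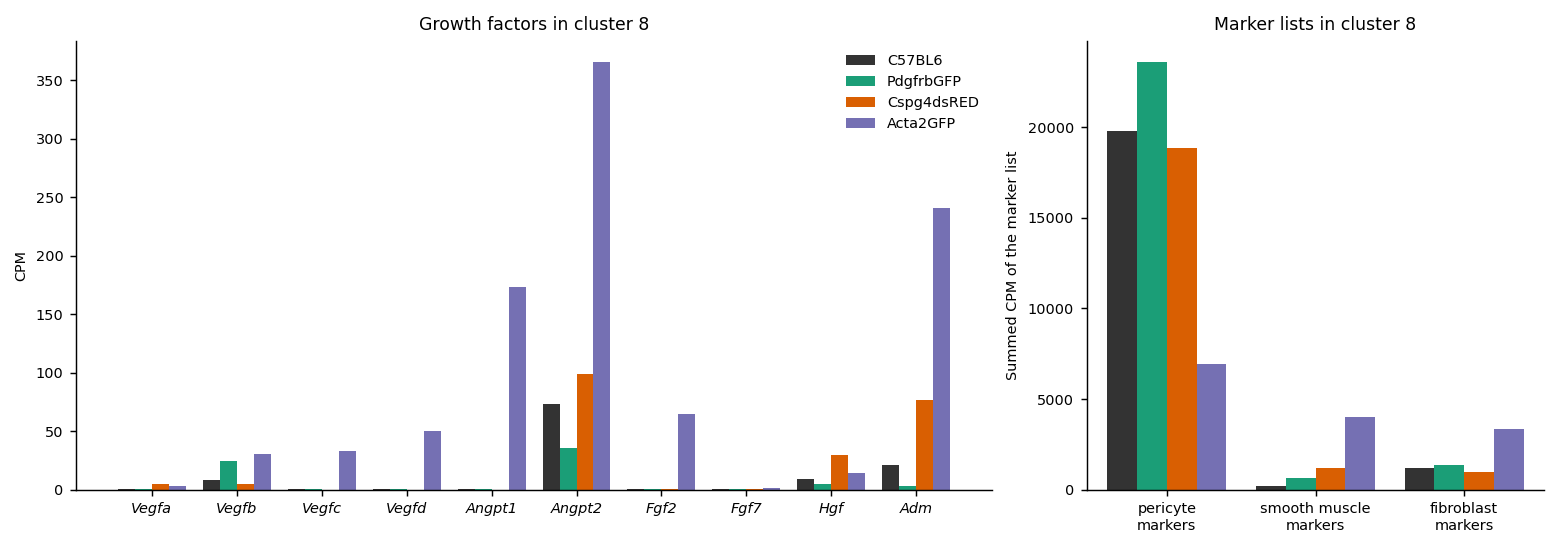
CPM of the 10 growth factor genes (left, bars from 0, 1 colour per strain) and summed CPM of the pericyte, smooth muscle and fibroblast marker lists (right) in cluster 8. The Acta2GFP bars reach 365 CPM for Angpt2, 240.6 for Adm and 173.3 for Angpt1, and its pericyte marker sum of 6942 CPM is the lowest of the 4 strains.

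The genes that receive or shape these signals came from lists chosen for the families. Of 16 receptor genes 13 were tested between fibroblasts and mural cells and 3 were called by edgeR, beside 5.93% of all genes. Tek, the angiopoietin receptor, was higher in fibroblasts, 130.7 against 4.08 CPM on average, by 4.89 on the log2 scale (SE 0.93, adjusted p = 0.0125). Flt4, the receptor of Vegfc and Vegfd, was at 0.0829 against 14.9 CPM, a difference of -8.03 (adjusted p = 0.0394; 0.0813 with the strain as a block) that ran from -10.04 to -3.15 over the alternatives, and Ramp1, a partner of calcitonin-family receptors, differed by -2.50 (adjusted p = 0.0446; 0.218 with the block). Of 12 alternatives Tek was called in 10, Flt4 in 8 and Ramp1 in 5. Tek was also lower in cluster 8 than in clusters 2 to 5, by -4.80, and in cluster 7, by -7.02, where Ramp1 was higher by 3.65, the only calls among 11 receptor genes tested in each of those comparisons, beside 6.60% and 4.52% of all genes. In cluster 1 Tek was at 2.09 ± 2.14 CPM (n = 4) against 150 CPM in clusters 2 to 5, a log2 difference of -5.97 (edgeR adjusted p = 0.00717) beside 1.33% of all genes called. Tek and Angpt1 were both low in cluster 1 and in most mural sums, although Angpt1 was called in neither comparison. In Acta2GFP, Angpt1 was at 3.59 CPM in cluster 4, below the 20.6 CPM of cluster 1. Ramp2, which makes the receptor Calcrl a receptor for adrenomedullin, had means of 465 to 602 CPM in clusters 1 to 5 and of 173.5 to 202.4 CPM in clusters 6 to 8, and it was not among the called genes. Met, the Hgf receptor, had means of at most 0.0615 CPM.

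**Figure D5:**
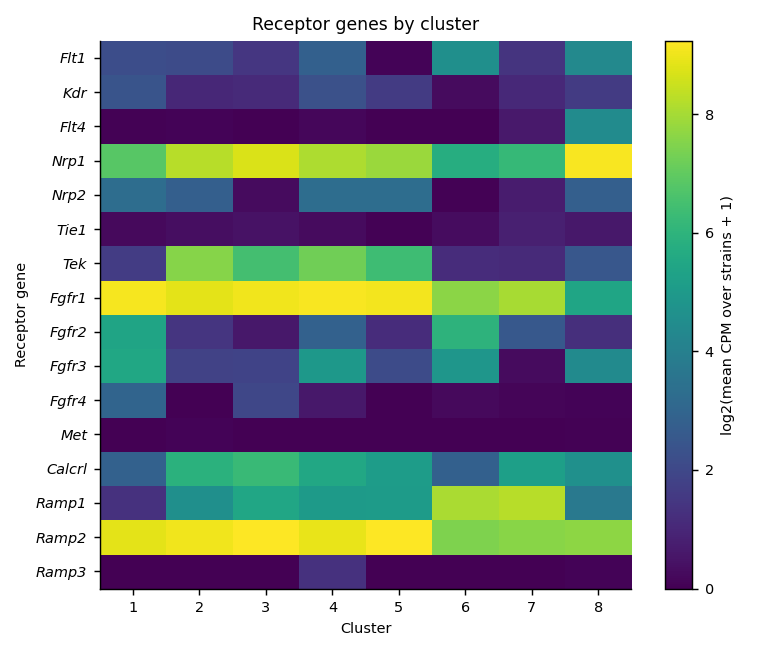
Mean level of the receptor genes as log2(mean CPM over strains + 1) (colour scale), with genes in rows and clusters 1 to 8 in columns. Tek has means of 81.1 CPM or more in clusters 2 to 5 and of 1.12 to 4.70 CPM in clusters 6 to 8, and Nrp1 has its highest mean, 563 CPM, in cluster 8.

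Among 9 other ligands of the families, 6 were tested between fibroblasts and mural cells, 0 were called by edgeR and 3 had an unadjusted p under 0.05, beside 5.93% and 17% of all genes. Against clusters 2 to 5, Fgf1, an acidic fibroblast growth factor, was higher in cluster 7 (302 ± 231.8 CPM, n = 3, against 4.44 CPM) by 6.15 on the log2 scale (edgeR adjusted p = 0.0208), and Fgf18 was lower in cluster 8 by -6.09 (0.0882 against 6.51 CPM), a call lost with the strain as a block (edgeR adjusted p = 0.0780). Among 9 genes of processing, 5 were tested and 2 called higher in fibroblasts, beside 3.47% of all genes called in that direction. These were Ccbe1, which helps mature Vegfc, by 6.98 (19.7 against 0.148 CPM, edgeR adjusted p = 0.00873), and Pam, which amidates adrenomedullin, by 1.57 (edgeR adjusted p = 0.0238; 835 against 283.9 CPM). Of 12 alternatives Ccbe1 was called in 11 and Pam in 9. Against clusters 2 to 5, 2 of 5 tested were called lower in cluster 8, Ccbe1 and Pam, beside 6.60% of all genes. In cluster 7 it was 1 of 5, Pam, beside 4.52%. Pam was lower by -1.71 in cluster 8 and by -2.77 in cluster 7, called in 8 of 11 and 7 of 10 alternatives. Ccbe1 ran from -8.27 to -4.17 over the alternatives in cluster 8 and was called in 8 of 11.

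Of 14 genes listed for their link to the hypoxia response, 13 were tested between fibroblasts and mural cells. Of these 2 were called, both lower in fibroblasts, beside 2.45% of all genes called in that direction. Epas1, which encodes a transcription factor of that response, was at 102.4 against 619 CPM, a log2 difference of -2.62 (edgeR adjusted p = 0.00476). Ankrd37 differed by -3.83 (edgeR adjusted p = 0.0253, or 0.0507 with the strain as a block). Of 12 dissociation genes 1 was called, Jun, beside 5.93% of all genes. It was higher in fibroblasts by 1.48 (edgeR adjusted p = 0.0253, or 0.0613 with the block). Of 12 alternatives Epas1 was called in 12, Ankrd37 in 8 and Jun in 7. Epas1 was higher than in clusters 2 to 5 by 2.74 in cluster 8 and by 3.28 in cluster 7. In cluster 8 against cluster 7 the dissociation gene Atf3 was the list member called, lower by -4.11, beside 0.194% of all genes. It was called in 7 of 10 alternatives. Of the 12 dissociation genes 8 had an unadjusted p under 0.05 there, beside 6.88% of all genes.

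The growth factors overlapped in single cells most often through Adm. With 10 counts or more of both, 62 cells had Angpt1 and Adm, and 43 had Fgf7 and Adm, out of 325 cells with that much Adm. Most of the 325 were fibroblasts, so the overlaps are given as counts only. Over the 27 sums of cluster and strain, the highest correlation of log2(CPM + 1) between members was 0.64 for Vegfa and Angpt1, followed by 0.60 for Vegfc and Fgf2, and the lowest was -0.46 for Angpt2 and Fgf7. The sums share strains and plates, so these correlations describe the table and carry no p.

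Among 10326 genes with a mean of 10 CPM or more, those most like each growth factor over the same 27 sums were ranked by Pearson's r. The closest pattern of all was that of Ndrg4 with Fgf2 (0.91), followed for Fgf2 by Slc7a2 (0.85) and 6330403K07Rik (0.82). Fgf7 was most like Ubtd2 (0.83), Mmp3 (0.83) and Gm36535 (0.82), and Adm was most like Tram2 (0.81), Creb3l1 (0.76) and Acvrl1 (0.74). Angpt1 was followed by Clec3b (0.83), Msc (0.82) and Gm15635 (0.80), and Angpt2 by Mutyh (0.81), St6gal1 (0.81) and Mamdc2 (0.80). For Vegfc these were Trf (0.85), Tlr2 (0.80) and Mmp19 (0.79), and for Vegfd Cys1 (0.85), Snrpg (0.80) and Haus1 (0.77). Vegfa had Zfp579 (0.78), Ankrd28 (0.77) and Pced1a (0.75), Vegfb had Sord (0.78), Zfp703 (0.77) and Snhg3 (0.76), and Hgf had the loosest matches, Hs1bp3 (0.71), Fxyd2 (0.70) and Lrrc8b (0.66).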

How the data were processed

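Whole hearts were digested, sorted and processed cell by cell with Smart-seq2. Reads were trimmed (Trim Galore), aligned to GRCm38 (TopHat) and counted per gene (featureCounts) by the authors. The deposited values are raw read counts without molecular identifiers, and full-length reads make longer genes gather more. The methods state a removal of doublets with samtools but not whether these were duplicate reads, so whether copies of a fragment were collapsed is not known. Strand setting and annotation release are not given in the sources used here.

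Gene names and positions came from GENCODE M21 (GRCm38). Spike-in rows were left out. Counts were summed per strain and side (3 cells or more on both), filtered with filterByExpr (minimum count 10), scaled by TMM and tested with edgeR 4.0.16 (quasi-likelihood F test, two-sided, Benjamini-Hochberg over all genes tested, threshold 0.05). The standard error was the log2 fold change over the square root of F. CPM is per 1000000 counts of the sum. The script was tested on simulated data. Labels name no animal, so p-values measure the spread between strains only. Cells of a strain come from the same plates on both sides. Over the comparisons, deviations of same-strain sums correlated at 0.0307 to 0.242, those of different strains at -0.165 to 0.160. Within a comparison these ranges overlapped only for fibroblasts against mural cells, cluster 6 against clusters 7 and 8, and cluster 7 against clusters 2 to 5. In the others that were checked every same-strain value was higher. In cluster 8 against clusters 2 to 5 it was 0.0971 to 0.148, against -0.119 to 0.0700 for different strains. Blocked values stand where they change a call.

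The genes named were all 10 members, up to 4 called genes per list and comparison with the largest change, and the 3 genes most like each member. Members and lists were chosen with earlier results of these data known. Alternatives were DESeq2 1.42.0, limma 3.58.1 (voom or mean per-cell CPM), other scaling, no filter, 10 cells per sum and each strain left out. Sums without the cell with most counts, and means without the highest sum, were added after seeing the data. Shares used Wilson 95% intervals. The limit of a count of 0 was 3 counts.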

Additional observations from a re-analysis of the deposited data

Results flagged for a closer look

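In groups of 4 strains, a strain was marked when it lay far from the other 3 by Dixon's test. Of 40 groups of growth factor levels 5 were marked. Chance marks about 1 in 20 where values are normal and independent. Many of these levels lie near 0 or rest on few cells, so 5 of 40 is not read as an excess. In cluster 8 the Acta2GFP level was high for 4 genes: Vegfc at 33.5 CPM (other strains 0 to 0.542), Vegfd at 50.3 CPM (0 to 0.949), Angpt1 at 173.3 CPM (0 to 0.542) and Fgf2 at 64.97 CPM (0.300 to 0.542). These are the same 15 cells, so the 4 values are not independent of each other. In cluster 4 Adm was low in Cspg4dsRED, at 11.3 CPM against 70.2 to 80.7 CPM in the other strains. That sum held 13 cells, and 53 of its 54 Adm counts came from 1 of them.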

How the results depend on the processing

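Fgf7 kept its direction in all 12 alternatives of fibroblasts against mural cells and was called in 9. In cluster 8 against clusters 2 to 5 it kept its direction in all 11 and was called in 10. Among these, the fit with 10 cells or more per sum repeated the main fit in both comparisons. In cluster 7 against clusters 2 to 5 it repeated the fit without PdgfrbGFP. That fit is included in the numbers of alternatives here and above, but is not a separate check in these comparisons. The number of members called in fibroblasts against mural cells was 1 (896 of all genes), became 2 with DESeq2 (1926) and 3 with limma-voom (1444), and ran from 0 to 1 with each strain left out. In cluster 8 against clusters 2 to 5 it was 1 (887 genes), became 3 with limma-voom (1647), and ran from 0 (without C57BL6, 1.47% of genes) to 3 (without Acta2GFP, 7.63%). In cluster 7 against clusters 2 to 5 it was 1 (616 genes), became 2 with DESeq2 size factors (847) and 2 with no low-count filter (901), 5 with DESeq2 (1750), 3 with limma-voom (1256), 0 with the strain as a block, 0 with 10 cells or more per sum, and 0 to 0 with each strain left out. It rose from 0 to 2 with DESeq2 in cluster 8 against cluster 7 (3.44% of genes), to 1 with limma on mean per-cell CPM in cluster 1 (2.36%), to 1 with DESeq2 in cluster 2 (1.29%) and in cluster 4 (1.31%), and in cluster 5 to 1 with no filter (0.119%) and 2 with DESeq2 (0.874%). The cause was not tested. Angpt1 in cluster 8 against clusters 2 to 5 turned from a log2 difference of 0.20 to -0.069 with no filter, -5.14 with limma-voom, -6.16 with the block and -3.29 with mean per-cell CPM, and ran from -7.32 to 0.65 with each strain left out. Vegfd in fibroblasts against mural cells turned from 0.35 to -0.31 without PdgfrbGFP. With each strain left out it ran up to 1.33 (without C57BL6), and with limma-voom it was 2.98. The block changed no other member's call. Of 10 members 5 had their highest mean in a fibroblast cluster, and 8 did by the median over strains of mean per-cell CPM. With cells thinned to 50000 counts, 4 members were found in at least 25% of the cells of a cluster, 7 were without thinning, and 3 were at 10 counts or more, a cut added after seeing the data. Between 2 and 4 strains enter each fit, and few cells carry each gene, so a difference not called may have been too small to detect at this depth.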
